A study of Mus musculus with 6 samples.

Results

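The genes described here encode the folding and disposal machinery of the endoplasmic reticulum (ER) and the sensors that control it, in Raw264.7 cells with reduced *Etv5*. They were chosen by gene symbol from a list of 37 genes. Of these, 36 symbols were found among the 24786 rows of the expression table, and *Vimp* was found under its current RefSeq symbol *Selenos*. The genes were grouped by role into chaperones and co-chaperones (12 genes), disulphide isomerases (5), ER-associated degradation or ERAD (12), sensors and their transcription factors (4), and protein translocation with other ER proteins (4).

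Messenger RNA was sequenced from Raw264.7, a macrophage line raised from a mouse tumor induced by Abelson leukemia virus, for which the labels name the strain C57BL/6 and, in all 6 libraries, an age of postnatal day 21. Cells had been infected with lentivirus carrying a negative control shRNA (sh-NC, 3 libraries) or an *Etv5* shRNA (sh-*Etv5*, 3 libraries). The labels give 24 or 48 h after infection as the time of measurement, without the time of these libraries, and the study describes the sequenced cells as stable lines. All 6 libraries therefore came from infected cells, and no library of uninfected cells was analysed here. The study lists 3 shRNAs against *Etv5*. Neither the one used here nor the origin of the libraries of a group (1 infection or several) is stated, so that p-values measure the spread between libraries, which may be technical.

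Proteins enter the ER unfolded and are held by chaperones such as BiP (*Hspa5*) until disulphide bonds and sugar chains are in place. Proteins that fail to fold are pulled back into the cytosol and degraded, which is ERAD. When unfolded proteins accumulate, the sensors IRE1 (*Ern1*), ATF6 and PERK release BiP and switch on the unfolded protein response. IRE1 splices the messenger of *Xbp1* into the form that encodes the active transcription factor, ATF6 is cut to free its own transcription factor domain, and PERK acts through ATF4. XBP1 and ATF6 bind ER stress elements in the promoters of chaperone and ERAD genes, together with the CCAAT-binding factor NF-Y. Secretory cells such as macrophages depend on this machinery for the cytokines and receptors they export.

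Promoter windows were read for the genes whose change is described below, because the ER stress element was first defined in promoters of this family. RefSeq sequences on GRCm38.p6, from 250 bases before to 50 bases after the annotated start of a gene, were available for 32 of the 37 genes (33 windows, as *Derl2* has 2) and not for *Hyou1*, *Sil1*, *Manf*, *Derl1* and *Atf6*. Exact matches were sought on both strands to the ER stress element ERSE (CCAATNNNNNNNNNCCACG), to ERSE-II (ATTGGNCCACG), to the core of the unfolded protein response element UPRE (TGACGTG) and to the CCAAT box (CCAAT), which is contained in ERSE and, on the other strand, in ERSE-II. The 12 matches to ERSE or ERSE-II are given with their positions, read in the direction of the motif, with the match in capitals and 10 flanking bases on either side.
Hspa5, ERSE, chr2:34772025-34772043, plus strand: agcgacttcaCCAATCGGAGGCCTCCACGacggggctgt
Creld2, ERSE, chr15:88819520-88819538, minus strand: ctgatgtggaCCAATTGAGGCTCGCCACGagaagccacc
Syvn1, ERSE, chr19:6046532-6046550, plus strand: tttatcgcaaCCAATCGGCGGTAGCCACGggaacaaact
Hsp90b1, ERSE, chr10:86705638-86705656, minus strand: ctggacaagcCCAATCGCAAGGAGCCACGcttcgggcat
Hsp90b1, ERSE, chr10:86705533-86705551, plus strand: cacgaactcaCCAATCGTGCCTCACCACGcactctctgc
Pdia6, ERSE, chr12:17266491-17266509, plus strand: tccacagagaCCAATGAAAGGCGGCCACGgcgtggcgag
Calr, ERSE, chr8:84847075-84847093, plus strand: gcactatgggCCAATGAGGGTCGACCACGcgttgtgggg
Dnajc3, ERSE, chr14:118937827-118937845, plus strand: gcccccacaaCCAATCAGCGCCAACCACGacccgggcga
Canx, ERSE, chr11:50325800-50325818, minus strand: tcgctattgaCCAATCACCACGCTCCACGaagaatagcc
Derl3, ERSE, chr10:75893242-75893260, minus strand: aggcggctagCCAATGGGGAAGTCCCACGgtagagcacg
Herpud1, ERSE-II, chr8:94386377-94386387, plus strand: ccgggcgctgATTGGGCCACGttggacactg
Dnajb11, ERSE-II, chr16:22857852-22857862, plus strand: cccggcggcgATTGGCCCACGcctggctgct

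A gene was counted when any of its windows held a match. ERSE was found in 9 of the 32 genes (28.1%), against 37 of all 27025 genes with a window (0.137%) and 11 of the 8317 tested genes with a window (0.132%). Of those 11 tested genes, 8 belonged to the genes described here. ERSE-II was found in *Herpud1* and *Dnajb11* (6.25% of the 32 genes, against 0.0444% of all genes with a window). The UPRE core was found in *Hspa5* alone (3.12%, against 2.22% of all and 3.44% of the tested genes with a window). A CCAAT box was found in 25 genes (78.1%, against 41.1% and 43.7%). The ER stress element was first defined in promoters of this family, so its high share among these genes is not an independent result. A match describes the letters of the window and does not show that a factor bound there.

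The windows of *Hspa5* and *Herpud1*, which rose, and of *Canx* and *Xbp1*, which fell, are shown whole, with ERSE, ERSE-II and UPRE core matches in capitals. The *Hspa5* window holds an ERSE that begins 65 bases before the annotated start and a UPRE core 157 bases before it. The *Canx* window holds an ERSE that begins 145 bases before the start, whereas the *Xbp1* window holds none of the 4 motifs.
Hspa5, chr2:34771840-34772139, plus strand: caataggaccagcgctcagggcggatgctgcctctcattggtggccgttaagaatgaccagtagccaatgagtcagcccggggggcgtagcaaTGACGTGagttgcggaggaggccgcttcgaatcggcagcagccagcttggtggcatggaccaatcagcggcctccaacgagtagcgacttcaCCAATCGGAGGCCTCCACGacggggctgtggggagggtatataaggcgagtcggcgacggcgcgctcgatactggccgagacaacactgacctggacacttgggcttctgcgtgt
Herpud1, chr8:94386179-94386478, plus strand: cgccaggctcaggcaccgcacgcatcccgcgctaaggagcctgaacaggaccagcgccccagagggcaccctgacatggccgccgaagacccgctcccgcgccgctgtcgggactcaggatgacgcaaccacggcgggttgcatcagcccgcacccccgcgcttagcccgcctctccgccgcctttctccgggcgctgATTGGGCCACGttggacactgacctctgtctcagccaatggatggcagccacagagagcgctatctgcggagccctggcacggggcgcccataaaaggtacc
Canx, chr11:50325624-50325923, minus strand: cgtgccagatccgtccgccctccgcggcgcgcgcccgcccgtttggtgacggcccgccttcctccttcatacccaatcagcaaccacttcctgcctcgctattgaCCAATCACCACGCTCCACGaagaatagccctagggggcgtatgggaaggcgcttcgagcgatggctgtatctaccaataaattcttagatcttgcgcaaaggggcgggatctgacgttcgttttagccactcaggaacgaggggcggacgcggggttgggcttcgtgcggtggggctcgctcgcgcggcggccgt
Xbp1, chr11:5520391-5520690, plus strand: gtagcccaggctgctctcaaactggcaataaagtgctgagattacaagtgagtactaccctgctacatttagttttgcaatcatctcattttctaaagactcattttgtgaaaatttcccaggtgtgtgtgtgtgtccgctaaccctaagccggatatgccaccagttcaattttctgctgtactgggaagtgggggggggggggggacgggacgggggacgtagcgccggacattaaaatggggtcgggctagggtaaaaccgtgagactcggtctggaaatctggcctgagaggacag

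**Figure D1:**
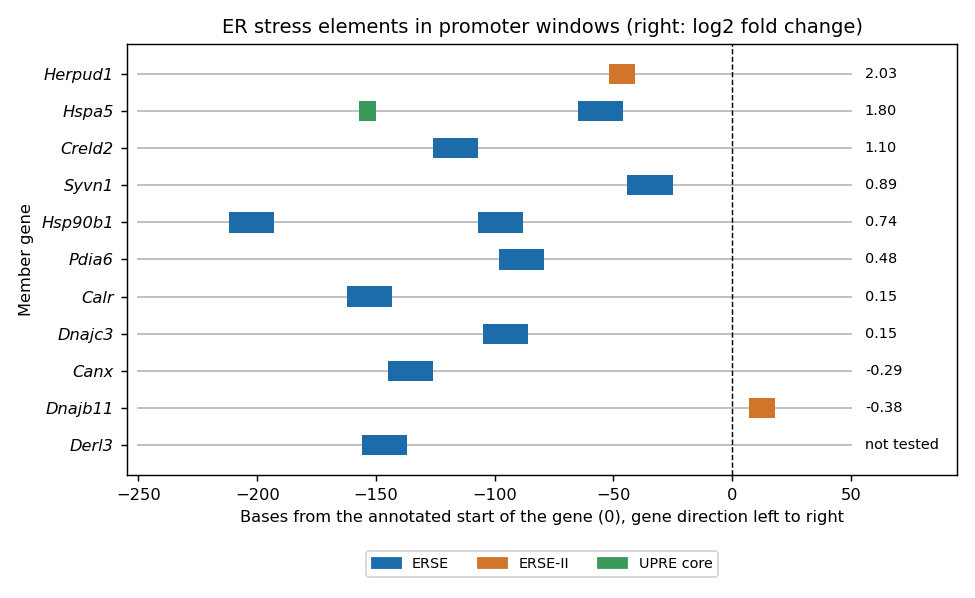
Positions of ERSE, ERSE-II and UPRE core matches in the promoter windows of 11 genes; the x axis gives bases from the annotated start, and the number at the right of each line is the log2 fold change of the gene. Matches occur in genes that rose, such as *Herpud1* (2.03) and *Hspa5* (1.80), and in *Canx* (-0.29) and *Dnajb11* (-0.38), which fell.

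The authors deposited RPKM values (reads scaled to gene length and to library size), which allow levels of different genes to be compared per length. The RPKM values of a library summed to between 320462 and 340257, and the number of reads behind them is unknown. All 8 macrophage markers reached 1 RPKM, whereas none of 5 T cell markers and none of 6 fibroblast and epithelial markers did (*Col1a2* and *Krt8* were listed at 0 in every library). Of 5 markers of B and plasma cells, *Sdc1* alone reached 1 RPKM and *Jchain* was listed at 0. The summed level of these 5 was 6.52 to 6.69 RPKM in sh-NC and 3.39 to 3.84 RPKM in sh-*Etv5* libraries, and that of the macrophage markers was 4651 to 4775 and 3605 to 3748 RPKM. Single macrophage markers moved in both directions. By limma (adjusted p under 0.05), 3 of the 8 were higher and 5 lower, against 33.3% and 41.0% of all tested genes. Their log2 fold changes ran from -0.81 to 1.88. The part of all these markers in the results was not tested. The target gene *Etv5* was at 9.18, 9.89 and 9.39 RPKM in sh-NC and at 5.19, 4.91 and 5.28 RPKM in sh-*Etv5* libraries, so that its mean fell by 46.0% (limma adjusted p = 2.74e-07), and 24.5% of its 50-base transcript sequences also occur in other genes. In bulk RNA, fewer cells with a transcript and less transcript per cell cannot be told apart.

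Genes were compared with limma on log2(RPKM + 1), and a Benjamini-Hochberg adjusted p-value under 0.05 over 10738 tested genes was called. Fold changes are sh-*Etv5* minus sh-NC on this scale, which understates the change of weakly expressed genes. Of the 37 genes, 36 passed the filter of 1 RPKM in at least 3 libraries, and *Wfs1* passed it only through the sh-*Etv5* libraries, so that it had to differ. Among these 36 genes, 29 were higher in sh-*Etv5* cells, 5 were lower and 2 were not called. Over all tested genes, 33.3% were called higher and 41.0% lower, 74.3% together, so that a call in itself is common in these libraries. The median log2 fold change was 0.53 over the 36 genes and -0.05 over all tested genes. An adjusted p-value under 0.05 together with a log2 fold change above 0.5 was reached by 18 of the 36 genes, against 15.9% of all tested genes, and one together with a log2 fold change below -0.5 by 0 of the 36, against 15.0%. The lowest value of the 36 was -0.41. Without *Wfs1*, 28 of 35 genes were higher and 5 lower, 17 were above 0.5, and the median log2 fold change was 0.48. All sh-*Etv5* libraries lay on one side of all sh-NC libraries in 33 of the 36 genes, against 76.4% of all tested genes.

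**Figure D2:**
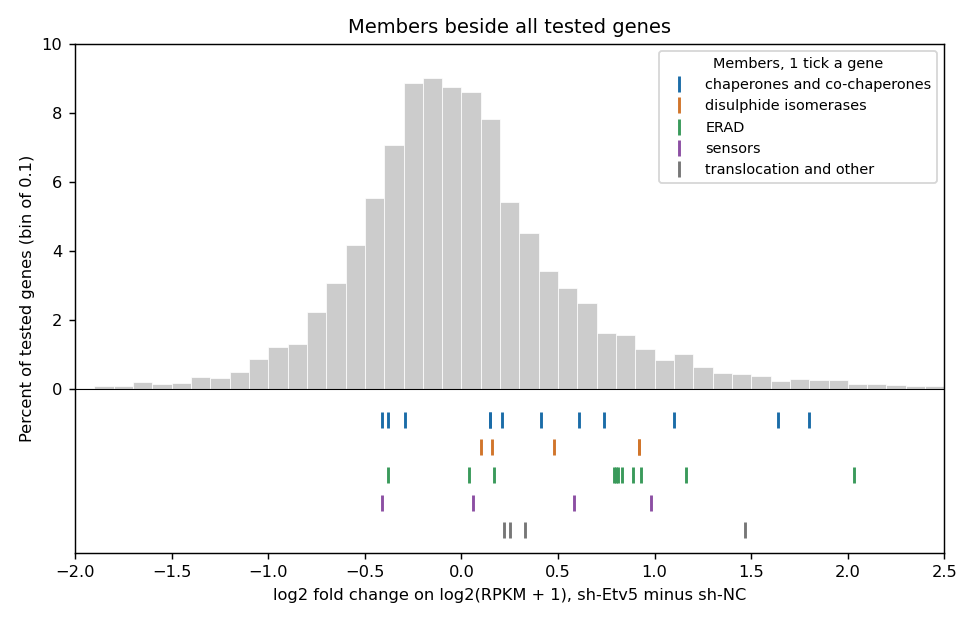
Histogram of log2 fold changes over 10738 tested genes (grey, percent of genes per bin of 0.1) with the 36 tested ER genes as ticks below, coloured by class; 1.19% of the tested genes lie outside the axis. The ticks spread from -0.41 to 2.03, and the median of the 36 genes (0.53) lies above that of all tested genes (-0.05).

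The 37 genes together made up 3370, 3410 and 3410 RPKM in sh-NC and 5695, 5602 and 5793 RPKM in sh-*Etv5* libraries, that is 1.04% to 1.06% and 1.70% of the RPKM sum of a library. *Hspa5* alone was 13.6% to 13.8% of the 37-gene total in sh-NC and 28.4% to 28.6% in sh-*Etv5* libraries. Without *Hspa5* the total of the other 36 genes was 1.39 times as high in sh-*Etv5* as in sh-NC cells, and with it 1.68 times. The ratio of the summed means was 1.86 for ERAD, 1.81 for chaperones and 1.52 for disulphide isomerases. It was 1.21 for translocation and other genes and 0.982 for the sensors and their transcription factors. Such sums follow the most abundant genes. The chaperone sum includes *Hspa5*, whose mean rose 3.49 times. Per gene, the median log2 fold change was 0.31 for chaperones and 0.81 for ERAD. In the class with the sensors, *Xbp1* and *Atf6b* were the most abundant (ratios of means 0.75 and 1.04). The less abundant *Ern1* and *Atf6* rose 2.28 and 1.52 times.

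**Figure D3:**
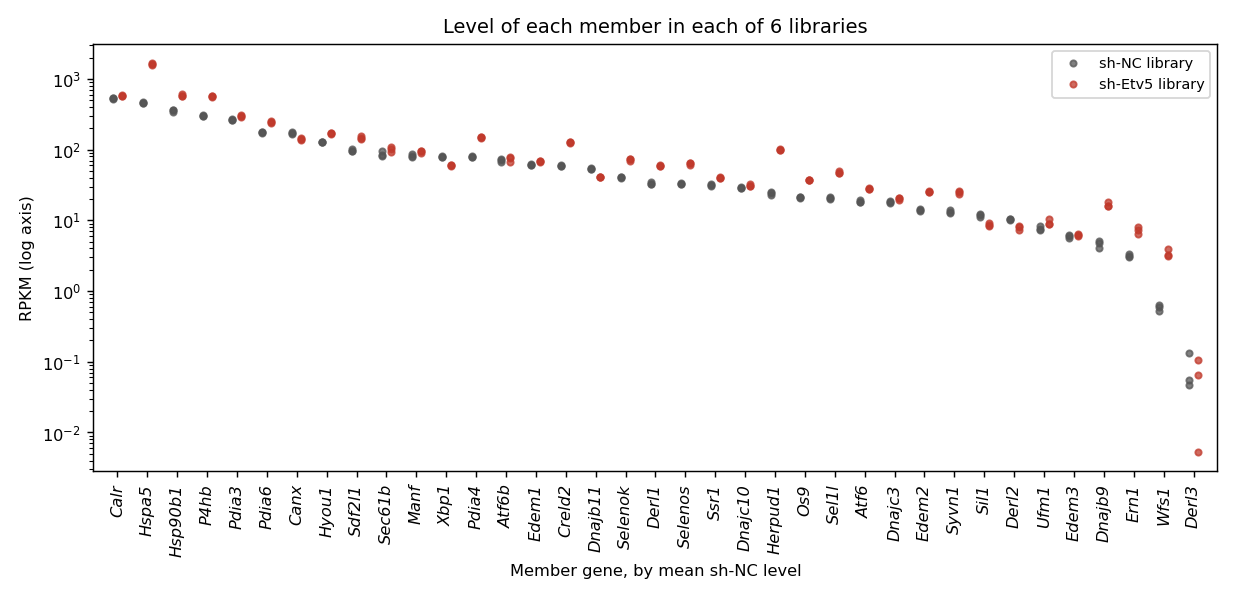
RPKM (log axis) of all 37 genes in each of the 6 libraries, ordered by the mean sh-NC level; grey points are sh-NC and red points sh-*Etv5* libraries. *Hspa5* was second to *Calr* in sh-NC cells and highest in sh-*Etv5* cells, and *Derl3* was at most 0.135 RPKM throughout.

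Chaperones moved in both directions. Of 12 chaperones and co-chaperones, 9 were higher and 3 lower, against 33.3% and 41.0% of all tested genes. Their median log2 fold change was 0.31. *Hspa5*, which encodes BiP, the Hsp70 chaperone of the ER, was at 462, 462 and 470 RPKM in sh-NC and at 1629, 1591 and 1654 RPKM in sh-*Etv5* libraries. Every sh-*Etv5* library thus stood far above every sh-NC library, with a ratio of mean levels of 3.49 (log2 fold change 1.80, standard error 0.0308, limma adjusted p = 2.24e-12). This log2 fold change lay at percentile 98.0 of all tested genes.

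*Hsp90b1*, the Hsp90 of the ER (GRP94), was at 338, 357 and 357 RPKM in sh-NC and at 579, 569 and 611 RPKM in sh-*Etv5* libraries (log2 fold change 0.74, limma adjusted p = 1.43e-08). It rose less than *Hspa5*, and the ratio of *Hspa5* to *Hsp90b1* within a library went from 1.33 ± 0.0373 to 2.77 ± 0.0573 (SD, n = 3). *Hyou1* (GRP170), a nucleotide exchange factor that acts on BiP, was at 127, 127 and 130 RPKM in sh-NC and at 170, 173 and 166 RPKM in sh-*Etv5* libraries (log2 fold change 0.41, limma adjusted p = 5.43e-07). *Sil1*, the other exchange factor of BiP in the list, went the opposite way. It was at 12.4, 11.1 and 12.0 RPKM in sh-NC and at 9.05, 8.35 and 8.50 RPKM in sh-*Etv5* libraries, so that it fell by 27.0% without overlap (limma adjusted p = 4.89e-05).

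The J-domain proteins, which stimulate the ATPase of BiP, did not move together. *Dnajb9* (ERdj4), known to act on IRE1 and in ERAD, was at 5.09, 4.78 and 4.12 RPKM in sh-NC and at 15.8, 15.8 and 18.3 RPKM in sh-*Etv5* libraries. Its mean rose 3.56 times (log2 fold change 1.64, standard error 0.0771, limma adjusted p = 7.56e-09). *Dnajb11* (ERdj3), a cofactor that holds unfolded substrates for BiP, was at 53.8, 54.2 and 53.2 RPKM in sh-NC and at 40.8, 40.7 and 41.5 RPKM in sh-*Etv5* libraries, so that it fell by 23.7% (log2 fold change -0.38, limma adjusted p = 1.29e-06). In sh-NC cells *Dnajb9* was at 0.0867 ± 0.00868 of the level of *Dnajb11*, and in sh-*Etv5* cells at 0.405 ± 0.0302 (SD, n = 3). *Dnajc3* (p58IPK) changed little, from 18.1 ± 0.477 to 20.1 ± 0.570 RPKM (SD, n = 3; log2 fold change 0.15, limma adjusted p = 0.01), and with libraries rescaled to the same RPKM sum its limma adjusted p was 0.0887.

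The lectin chaperones calreticulin and calnexin, which hold glycoproteins by the same sugar signal, diverged. *Calr*, the lumenal form, was at 515, 534 and 530 RPKM in sh-NC and at 573, 581 and 601 RPKM in sh-*Etv5* libraries, a rise of 11.2% (limma adjusted p = 0.00143). *Canx*, the membrane-bound form, was at 168, 174 and 175 RPKM in sh-NC and at 136, 141 and 146 RPKM in sh-*Etv5* libraries, so that it fell by 18.0% (limma adjusted p = 2.43e-05). The ratio of *Calr* to *Canx* was 3.03 to 3.07 in the sh-NC libraries and 4.11 to 4.20 in the sh-*Etv5* libraries, and both windows hold an ERSE in the sequences above.

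Smaller lumenal proteins known to be induced by ER stress were higher to unequal degrees. *Creld2* was at 60.3, 58.7 and 57.7 RPKM in sh-NC and at 130, 122 and 129 RPKM in sh-*Etv5* libraries (ratio of means 2.16, limma adjusted p = 5.18e-10). *Sdf2l1*, a partner of ERdj3 and BiP, rose from 97.4 ± 3.11 to 149 ± 7.13 RPKM (SD, n = 3; ratio 1.53, limma adjusted p = 1.62e-07). *Manf*, which is secreted under stress, was at 85.7, 79.6 and 80.0 RPKM and at 95.9, 90.8 and 97.0 RPKM (ratio 1.16, limma adjusted p = 0.000789). The groups did not overlap for any of the 12 chaperones, as for 76.4% of all tested genes. Exons of other genes lie on the opposite strand of 10.3% of the *Hsp90b1*, 8.85% of the *Manf* and 5.7% of the *Sil1* exon bases. The library kit named in the study does not mark strand. Of the 50-base transcript sequences, 9.75% of *Hsp90b1*, 6.17% of *Manf* and 5.5% of *Dnajb9* also occur in other genes.

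All 5 disulphide isomerases were called higher, against 33.3% of all tested genes, with a median log2 fold change of 0.48. These thioredoxin-fold enzymes form, break and rearrange disulphide bonds. *P4hb* (PDI) was at 303, 301 and 306 RPKM in sh-NC and at 575, 563 and 581 RPKM in sh-*Etv5* libraries, a ratio of means of 1.89 (log2 fold change 0.92, standard error 0.0297, limma adjusted p = 4.03e-10). *Pdia4* (ERp72) was at 77.5, 81.6 and 78.6 RPKM and at 147, 152 and 152 RPKM (ratio 1.90, limma adjusted p = 1.15e-09). *P4hb* and *Pdia4* thus rose by nearly the same factor from different levels.

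*Pdia6* (P5) rose from 176 ± 2.41 to 245 ± 6.58 RPKM (SD, n = 3; ratio 1.39, limma adjusted p = 1.63e-07). *Pdia3* (ERp57), which works with calreticulin and calnexin on glycoproteins, rose by 12.1% without overlap, from 266 ± 1.70 to 298 ± 9.29 RPKM (SD, n = 3; limma adjusted p = 0.000841). Its rise was close to that of *Calr* in size. *Dnajc10* (ERdj5), a reductase that opens disulphide bonds before ERAD, was at 29.0, 29.1 and 28.7 RPKM in sh-NC and at 30.6, 30.5 and 32.4 RPKM in sh-*Etv5* libraries (log2 fold change 0.10, limma adjusted p = 0.0349). The groups did not overlap, but the call for *Dnajc10* was lost without sh-*Etv5* replicate 3 (limma adjusted p = 0.0925), sh-NC replicate 1 (0.0702), sh-NC replicate 2 (0.0743) or sh-NC replicate 3 (0.101).

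**Figure D4:**
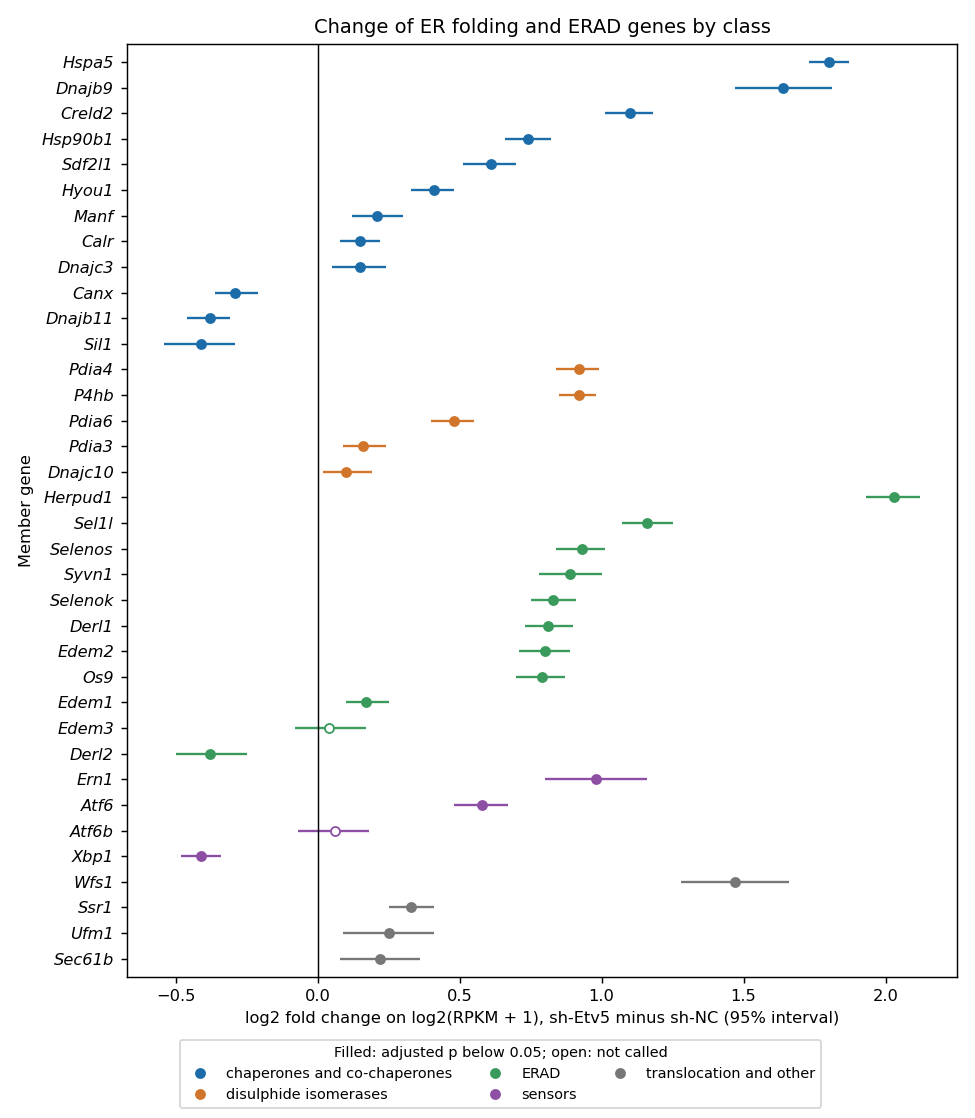
Log2 fold change of the 36 tested genes with 95% confidence intervals from limma, grouped by class; filled points had an adjusted p-value under 0.05. Disulphide isomerases and most ERAD genes lie to the right of 0, and *Sil1*, *Dnajb11*, *Canx*, *Derl2* and *Xbp1* lie to the left.

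ERAD had the highest median log2 fold change of the 5 classes (0.81). Of 11 tested ERAD genes, 9 were higher, 1 was lower and 1 was not called, beside 33.3% higher and 41.0% lower over all tested genes. *Herpud1*, a membrane protein that assembles the degradation complex around the HRD1 ligase, was at 24.9, 22.6 and 24.4 RPKM in sh-NC and at 101, 99.9 and 100 RPKM in sh-*Etv5* libraries. Its mean rose 4.20 times, and its log2 fold change, 2.03 with a standard error of 0.0414, lay at percentile 98.6 of all tested genes (limma adjusted p = 1.01e-11). It was the largest value of the 36 genes with a pseudocount of 1, whereas with a pseudocount of 0.1 *Wfs1* (2.35) was above *Herpud1* (2.07).

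The ligase complex itself was also higher. *Sel1l*, the adaptor of HRD1, was at 19.9, 20.8 and 21.3 RPKM in sh-NC and at 46.6, 49.2 and 46.4 RPKM in sh-*Etv5* libraries (ratio of means 2.29, limma adjusted p = 1.06e-09). *Syvn1*, which encodes HRD1, was at 12.5, 13.8 and 12.9 RPKM and at 25.3, 25.7 and 23.8 RPKM (ratio 1.91, limma adjusted p = 3.37e-08). Exons of *Mrpl49* lie opposite 1.87% of the *Syvn1* exon bases, and *Mrpl49* fell (log2 fold change -0.33). *Os9*, a lectin that delivers glycoproteins to the complex, rose from 21.3 ± 0.552 to 37.4 ± 0.601 RPKM (SD, n = 3; ratio 1.76, limma adjusted p = 1.17e-08).

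The channel-forming derlins differed. *Derl1* was at 33.0, 32.5 and 34.6 RPKM in sh-NC and at 59.0, 61.2 and 58.0 RPKM in sh-*Etv5* libraries (ratio 1.78, limma adjusted p = 9.99e-09). Of its 50-base transcript sequences, 5.56% also occur in other genes. *Derl2* was at 10.5, 10.2 and 10.6 RPKM and at 7.22, 8.03 and 8.20 RPKM, so that it fell by 25.1% (limma adjusted p = 0.000127). The ratio of *Derl1* to *Derl2* was 3.14, 3.20 and 3.25 in the sh-NC libraries and 8.17, 7.62 and 7.07 in the sh-*Etv5* libraries. *Derl3* was between 0.0053 and 0.135 RPKM in the 6 libraries, with overlapping groups, and was not tested. *Mis12*, whose exons lie opposite 2.87% of the *Derl2* exon bases, was lower as well (log2 fold change -0.19).

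The EDEM proteins, which trim mannose from misfolded glycoproteins and so mark them for disposal, also differed. *Edem2*, known for the first trimming step, was at 14.3, 14.2 and 13.6 RPKM in sh-NC and at 25.6, 25.1 and 24.9 RPKM in sh-*Etv5* libraries (ratio 1.80, limma adjusted p = 1.88e-08). *Edem1* rose by 13.0%, from 60.4 ± 1.07 to 68.3 ± 1.05 RPKM (SD, n = 3; limma adjusted p = 0.000686). *Edem3* was at 5.71, 6.17 and 6.08 RPKM and at 6.31, 6.25 and 6.02 RPKM, and its groups overlapped (log2 fold change 0.04, 95% confidence interval -0.08 to 0.17, limma adjusted p = 0.517). *Edem1* was the most abundant of these 3 genes in both groups, and the ratio of *Edem2* to *Edem1* went from 0.232 ± 0.0106 to 0.369 ± 0.0046 (SD, n = 3).

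The ERAD selenoproteins, which bind derlins and the ATPase p97, rose by like amounts. *Selenok* was at 40.5, 39.4 and 40.6 RPKM in sh-NC and at 74.1, 69.7 and 72.6 RPKM in sh-*Etv5* libraries (ratio 1.80, limma adjusted p = 4.96e-09), and 12.7% of its 50-base transcript sequences also occur in other genes. *Selenos*, listed as *Vimp*, was at 33.3, 33.0 and 32.8 RPKM and at 64.7, 61.1 and 65.6 RPKM (ratio 1.93, limma adjusted p = 2.76e-09). None of its 50-base sequences occurs in transcripts of another gene.

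Of the 4 sensors and their transcription factors, 2 were called higher, 1 lower and 1 was not called. Over all tested genes, 33.3% were called higher and 41.0% lower. The gene called lower was *Xbp1*, which encodes a transcription factor, and none of *Ern1*, *Atf6* and *Atf6b* was called lower. *Ern1*, which encodes IRE1, was at 3.07, 3.16 and 3.31 RPKM in sh-NC and at 7.27, 8.16 and 6.34 RPKM in sh-*Etv5* libraries (ratio 2.28, log2 fold change 0.98, standard error 0.0812, limma adjusted p = 8.24e-07). *Xbp1*, whose messenger IRE1 splices, fell instead. It was at 79.8, 78.5 and 80.3 RPKM in sh-NC and at 60.2, 59.6 and 59.1 RPKM in sh-*Etv5* libraries, and its mean decreased by 25.0% (log2 fold change -0.41, standard error 0.0320, limma adjusted p = 4.93e-07). Values per gene do not tell the spliced from the unspliced *Xbp1* messenger, and the splicing itself was not measured here.

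*Atf6* was at 18.4, 19.3 and 18.0 RPKM in sh-NC and at 27.7, 29.0 and 27.8 RPKM in sh-*Etv5* libraries (ratio 1.52, limma adjusted p = 3.41e-07). Its relative *Atf6b* was at 73.4, 66.6 and 71.4 RPKM and at 77.3, 76.2 and 67.0 RPKM, and the groups overlapped (log2 fold change 0.06, 95% confidence interval -0.07 to 0.18, limma adjusted p = 0.36). Without sh-*Etv5* replicate 3, the lowest of its group, *Atf6b* was called higher (log2 fold change 0.12, limma adjusted p = 0.0245). *Atf6b* remained the more abundant of the pair per length, with a ratio of *Atf6* to *Atf6b* of 0.250 to 0.289 in sh-NC and 0.358 to 0.415 in sh-*Etv5* libraries.

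The remaining 4 genes were called higher, against 33.3% of all tested genes. *Wfs1*, which encodes the ER membrane protein wolframin, was at 0.641, 0.590 and 0.528 RPKM in sh-NC and at 3.17, 3.89 and 3.18 RPKM in sh-*Etv5* libraries (log2 fold change 1.47, and 2.35 with a pseudocount of 0.1). It was weakly expressed in both groups, and its call is not a test, since only the sh-*Etv5* libraries carried it past the filter. *Ssr1*, a subunit of the translocon-associated complex, rose from 31.6 ± 0.849 to 40.0 ± 0.481 RPKM (SD, n = 3; ratio 1.27, limma adjusted p = 1.08e-05). *Ufm1*, a small protein modifier that acts at the ER, was at 7.33, 7.42 and 8.25 RPKM and at 8.85, 8.80 and 10.4 RPKM (ratio 1.22, limma adjusted p = 0.00779). *Sec61b*, a subunit of the protein-conducting channel, was at 81.6, 94.7 and 84.2 RPKM and at 108, 92.9 and 102 RPKM (ratio 1.16, limma adjusted p = 0.00882). The groups overlapped for *Sec61b*, 17.4% of its 50-base sequences occur in other genes, and with no filter on low values the limma adjusted p was 0.142 for *Sec61b* and 0.084 for *Ufm1*.

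Of the tested genes with an ER stress element, *Canx* and *Dnajb11* were called lower and the others higher. The 10 tested genes with ERSE or ERSE-II had a median log2 fold change of 0.61, and the 21 tested genes with a window and neither element also had 0.61. For the CCAAT box, which ERSE and ERSE-II contain, the medians were 0.76 (24 genes with it) and 0.25 (7 genes without). Only exact matches were counted, genes without a window were left out, and whether an element acted was not tested. Log2 fold changes of the genes with an element ran from -0.38 for *Dnajb11* to 2.03 for *Herpud1*. *Dnajb9* (1.64), *Sel1l* (1.16) and *Pdia4* (0.92) had no exact match to either element in their windows.

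Further genes of the pathway were read from the same fit, in lists by role. Their counts stand beside 33.3% of all tested genes called higher and 41.0% called lower. Genes of these lists that passed the filter only through the sh-*Etv5* libraries were not set apart, whereas *Wfs1* was above. Of 17 tested genes of the PERK and ATF4 branch, 13 were higher (76.5%), 3 lower and 1 was not called, with a median log2 fold change of 1.42, above those of the 5 classes described. *Ddit3*, which encodes the transcription factor CHOP, rose from 8.48 ± 0.494 to 154 ± 6.24 RPKM (SD, n = 3; log2 fold change 4.04, limma adjusted p = 1.29e-13). Its target *Trib3* was at 2.85 to 3.28 RPKM in sh-NC and at 38.6 to 40.9 RPKM in sh-*Etv5* libraries (log2 fold change 3.36, limma adjusted p = 1.92e-12). Of 21 genes of the translocon and signal peptidase, 19 were higher (90.5%) and 0 lower by limma (median 0.39, lowest value 0.03), led by the signal peptidase subunits *Spcs3* (0.93) and *Sec11c* (0.65). Of 19 further ERAD genes 8 were higher (42.1%), 3 lower and 8 not called (median 0.10), with *Fam8a1*, a cofactor of HRD1, and *Ubxn6*, a cofactor of p97, changing most (0.86 and 0.70).

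Of 23 tested further folding factors, 11 were higher (47.8%), 4 lower and 8 not called (median 0.07), with *Fkbp11*, a prolyl isomerase, and *Prkcsh*, a subunit of glucosidase II, changing most (1.55 and 0.88). Of 13 tested partners of IRE1 and ATF6, 4 were higher (30.8%), 6 lower and 3 not called (median -0.08). *Creb3*, an ER-bound transcription factor related to ATF6, was higher (0.83). *Nfya*, a subunit of NF-Y, was at 39.2, 38.7 and 39.1 RPKM in sh-NC and at 21.9, 22.6 and 22.4 RPKM in sh-*Etv5* libraries, and its mean fell by 42.8% (limma adjusted p = 7.81e-09).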

How the data were processed

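The authors deposited 1 RPKM value per gene symbol and library, without log transformation. Their library kit was Illumina TruSeq, and the processing notes name mm10. Aligner and annotation are not given in the sources used here, and column names refer to coverage tracks. Among genes below 0.05 RPKM, 11.0% to 14.6% had ratios between libraries that were small whole-number multiples of a common step (within 0.2%), so whole reads and depth were not recovered. All 6 columns were used, grouped by sample titles.

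Genes with at least 1 RPKM in at least 3 libraries were tested with limma 3.58.1 in R 4.3.3 on log2(RPKM + 1), two-sided, with an intensity trend and no covariate, the package of the study's methods. Adjusted p-values (Benjamini-Hochberg) under 0.05 were called. With 3 libraries a group, exact permutation p-values could not be below 0.1. The fit was tested on simulated data for 10738 genes, where 185 of 200 changed genes were called with 7 unchanged ones. The simulated noise was independent between genes and few genes were changed, whereas 74.3% of tested genes were called in the data. The simulation therefore does not give the error rate of the calls here. All 37 genes are named, and of each further list the 2 tested genes with the largest change. The genes and lists were chosen with earlier results of these data known. Ratios between genes were chosen after the values were seen. Coordinates of exons and the 50-base sequences came from GENCODE M21 on GRCm38, promoter windows from RefSeq. Python 3.11.15, pandas 2.3.3 and NumPy 2.4.6 were used. Alternatives are given in the closing section.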

Additional observations from a re-analysis of the deposited data

How the results depend on the processing

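The fold changes of the 36 tested genes were recomputed with a pseudocount of 0.1, without a filter and with a mean RPKM of at least 5 (35 genes, without *Wfs1*). Further settings were libraries rescaled to the same RPKM sum, quantile normalization, no intensity trend, the replicate number as a block, and leaving out each library in turn. Added after the data were seen were libraries rescaled on the sum outside the 10 highest genes of each library, and the counts without *Wfs1*. Between 27 and 29 genes were called higher and 5 lower under each of these. With an absolute log2 fold change above 0.5 required in addition, 18 were higher and 0 lower, and over all tested genes the counts became 1711 and 1611 in place of 3575 and 4399. With the same RPKM sum, the log2 fold changes of *Edem3* and *Atf6b* changed sign to -0.01 and -0.002, neither called, and the cause was not tested. The log2 fold change of *Wfs1* was 2.35 with a pseudocount of 0.1, against 1.47. With the same RPKM sum those of *Calr*, *Pdia3* and *Edem1* were 0.09, 0.10 and 0.11, against 0.15, 0.16 and 0.17, and each kept its call. For *Dnajc10* the limma adjusted p was 0.335 with the same RPKM sum and 0.0628 without the trend. Same-numbered libraries did not deviate together (correlations 0.0739, -0.071 and -0.0352), so the numbers were not taken as pairs. With the replicate block 28 genes were called higher and 5 lower, and 35 of 36 genes kept their call, the exception being *Dnajc10* (limma adjusted p = 0.0512). The limma adjusted p of *Etv5* was 1.01e-05 with the block. The number of reads is unknown, so counting error could not be given.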
